A study of Homo sapiens with 12 samples.

Results

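LOC107987269, VAT1L, SLA2, SYNPO, TIFAB, DEFB1, MPP1, ASB13 and RFLNB are 9 genes whose levels are described here in human leukemia cells treated with Jiyuan oridonin A (JOA), an ent-kaurene diterpenoid. They are 9 of the 20030 rows of the deposited expression table. They were chosen from the THP-1 libraries as genes outside the MHC, KIT and autophagy groups whose level moved most steadily with JOA, so their change in THP-1 cells is given below as a description with no test.

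The mRNA-seq data cover 12 bulk libraries of 2 acute myeloid leukemia cell lines, both of which carry an MLL rearrangement. MOLM-13 cells also carry the FLT3/ITD mutation and were incubated with 0.5 μM JOA, whereas THP-1 cells have wild-type FLT3 and were incubated with 2 μM JOA, each for 48 h according to the sample records and the methods, while a legend of the study gives a longer time. DMSO served as the control, and each of the 4 groups has 3 libraries. Dose and cell line differ together and cannot be told apart, and each line is a single established line. Levels are FPKM, that is mapped fragments scaled to transcript length and to library size, so that levels of different genes can be set side by side. Log2 fold changes are on the scale of log2(FPKM + 0.1), which understates the change of genes with low values.

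The libraries of each line were alike, with correlations across genes of 0.989 to 0.996 in MOLM-13 and 0.987 to 0.995 in THP-1. Relative to control 1 of the same line, depth ranged from 0.882 to 1.0 in MOLM-13 and from 0.931 to 1.07 in THP-1. Absolute depth is unknown, and no counting interval is given. Myeloid markers defined both lines, with 9 of 11 at a mean of at least 1 FPKM in MOLM-13 and 10 of 11 in THP-1. The summed level of 4 markers each of T cells, B cells, erythroid, epithelial and fibroblast cells stayed at or below 10.6 FPKM in every library, against at least 1211 FPKM for the myeloid list. In bulk samples, fewer cells expressing a gene and less RNA per cell cannot be told apart.

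The 9 genes belong to different cellular systems. SLA2 and TIFAB damp signals from surface and innate immune receptors, DEFB1 is an antimicrobial peptide, and ASB13 selects proteins for ubiquitination. SYNPO, RFLNB and MPP1 act at the actin cytoskeleton and the membrane skeleton, through which myeloid cells change shape and move. VAT1L is a relative of a synaptic vesicle membrane protein with the fold of an oxidoreductase, and LOC107987269 is an uncharacterized locus that RefSeq predicts to code for protein.

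In THP-1 cells, the choice of members fixed that 4 genes were higher with JOA and 5 were lower. LOC107987269, RFLNB, ASB13 and MPP1 were the higher ones, and VAT1L, SLA2, SYNPO, DEFB1 and TIFAB the lower ones. All 9 passed the filter of a mean of at least 0.1 FPKM over the THP-1 libraries. LOC107987269 passed it only through its JOA libraries (mean 0.354 FPKM, against 0.0593 FPKM in control). All 9 met the call rule (limma, Benjamini-Hochberg adjusted p under 0.05 and a log2 fold change of at least 0.58 in size), as did 0.134% of the 12712 genes tested. Their JOA and control libraries did not overlap, which held for 23.4% of all genes tested. These counts follow from the choice and support nothing further. With the replicate number as a block, 1.27% of all genes were called. The members' log2 fold changes ranged from 0.62 to 1.52 in size, and those nearest to the threshold of 0.58 were MPP1 (0.62, SE 0.08) and TIFAB (-0.65, SE 0.09).

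**Figure D1:**
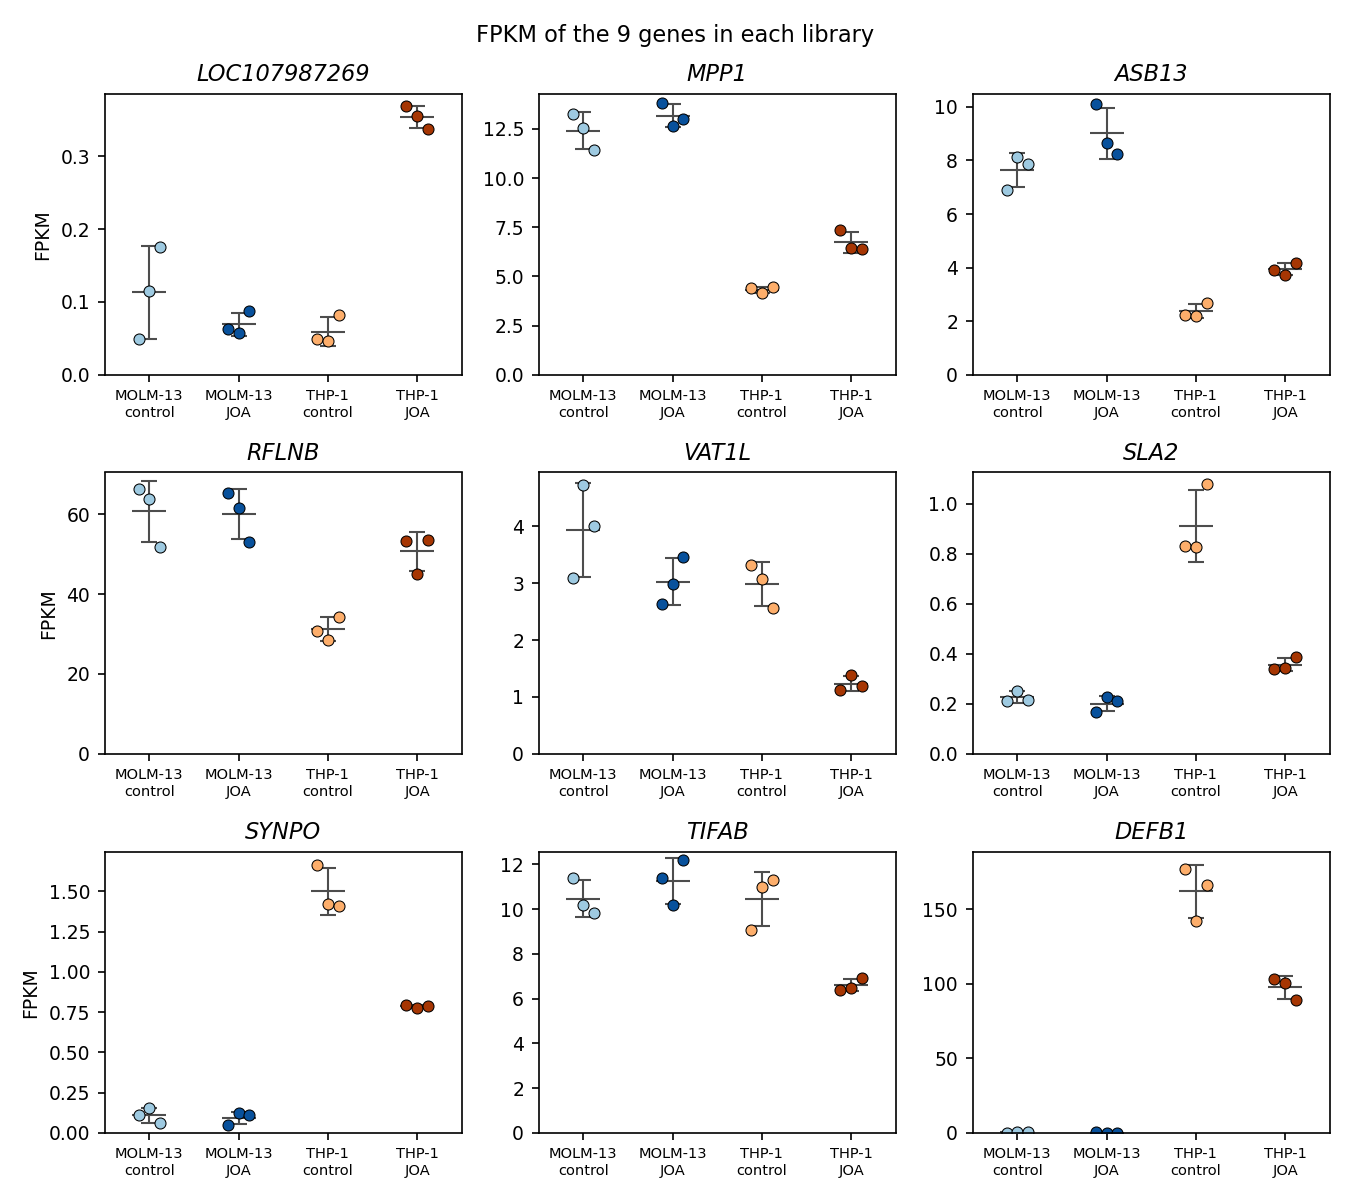
FPKM (vertical axis, from 0, with its own scale for each gene) of the 9 genes in the 12 libraries, by group. Points are libraries, in the order of their replicate numbers, the wide dash is the group mean and the bars are 1 SD (n = 3), cut at 0; in all 9 panels the THP-1 JOA points lie apart from the THP-1 control points, and only the ASB13 panel shows the same separation in MOLM-13.

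SLA2, the Src-like adaptor 2, recruits the ubiquitin ligase CBL to activated receptors and so dampens their signals. The THP-1 control libraries gave 0.829, 0.825 and 1.08 FPKM, and the JOA libraries 0.340, 0.344 and 0.386 FPKM. The highest JOA value lay below the lowest control value, and the mean was 2.55-fold lower with JOA (log2 fold change -1.14, SE 0.15). In MOLM-13, the control libraries gave 0.210, 0.253 and 0.217 FPKM and the JOA libraries 0.166, 0.225 and 0.211 FPKM. These groups overlapped, although the JOA library was the lower one in each of the 3 same-numbered pairs. The order of the group means was THP-1 control, THP-1 JOA, MOLM-13 control and MOLM-13 JOA, of which the last pair of neighbours did not differ beyond their spread. The THP-1 level with JOA stayed 1.58-fold above that of MOLM-13 control cells. The gene spans chr20:36612318-36646196 on the minus strand, with 8 exons in GENCODE.

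TIFAB inhibits the adaptor TIFA and limits signaling through the ubiquitin ligase TRAF6. In THP-1, the control libraries had 9.09, 10.97 and 11.3 FPKM and the JOA libraries 6.40, 6.49 and 6.93 FPKM. The groups lay well apart, with a mean 1.58-fold lower after JOA (log2 fold change -0.65, SE 0.09). MOLM-13 control libraries had 11.4, 10.2 and 9.81 FPKM and the JOA libraries 11.4, 10.2 and 12.2 FPKM. The MOLM-13 groups overlapped each other and the THP-1 control libraries. THP-1 JOA was the only group of the 4 that stood apart from the rest. TIFAB lies at chr5:135444226-135452351 on the minus strand, with 2 exons.

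DEFB1 encodes beta-defensin 1, an antimicrobial peptide that epithelia and monocytes make without prior stimulation. It was the most abundant member in THP-1, with 177 FPKM, 142 FPKM and 166 FPKM in the control libraries and 103 FPKM, 101 FPKM and 89.0 FPKM in the JOA libraries. Every JOA library was below every control library, and the mean was 1.66-fold lower (log2 fold change -0.73, SE 0.09). MOLM-13 cells gave 0.174, 0.196 and 0.806 FPKM in the control libraries. Their JOA libraries gave 0.198 FPKM once and were listed at 0 in the other two. The gene was thus close to the limit of measurement in MOLM-13, where the groups overlapped. DEFB1 is on chromosome 8 from 6870592 to 6877936, on the minus strand, and has 2 exons.

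ASB13 is an ankyrin repeat and SOCS box protein, a substrate receptor of ubiquitin ligases built on CUL5. THP-1 control libraries had 2.25, 2.19 and 2.67 FPKM and JOA libraries 3.90, 3.73 and 4.18 FPKM. With JOA the level was 1.66-fold higher with no overlap (log2 fold change 0.71, SE 0.10). The MOLM-13 controls had 6.90, 8.13 and 7.88 FPKM and the JOA libraries 10.1, 8.67 and 8.25 FPKM. ASB13 was the only member whose MOLM-13 groups did not overlap, although the lowest JOA library exceeded the highest control library by little. All MOLM-13 libraries lay above all THP-1 libraries. ASB13 occupies chr10:5638867-5666595 on the minus strand and has 6 exons.

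MPP1, also called p55, is a membrane-associated guanylate kinase homologue that links protein 4.1 and glycophorin C in the red cell membrane and is also found in leukocytes. Its THP-1 control libraries had 4.39, 4.16 and 4.44 FPKM and its JOA libraries 7.36, 6.42 and 6.42 FPKM. The control values lay within a narrow range below all JOA values, and the mean was 1.56-fold higher with JOA (log2 fold change 0.62, SE 0.08). In MOLM-13 the control libraries had 13.2, 12.6 and 11.4 FPKM and the JOA libraries 13.8, 12.7 and 13.0 FPKM. JOA was the higher member of each of the 3 same-numbered pairs there, but the groups overlapped. MOLM-13 control and JOA were the highest groups and did not differ beyond their spread, followed by THP-1 JOA and THP-1 control. MPP1 lies at chrX:154778684-154805485 on the minus strand, with 12 exons.

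RFLNB, refilin B, binds filamin and shapes bundled actin filaments. Control THP-1 libraries gave 30.8, 28.5 and 34.4 FPKM and JOA libraries 53.4, 45.1 and 53.7 FPKM. The JOA values were all higher, by 1.62-fold in the mean (log2 fold change 0.70, SE 0.09). In MOLM-13 the levels were 66.4, 63.9 and 51.9 FPKM in the control libraries and 65.3, 61.5 and 53.2 FPKM in the JOA libraries. These groups covered nearly the same range, and THP-1 JOA libraries 1 and 3 also fell within it. RFLNB spans chr17:439978-445940 on the minus strand, with 2 exons.

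SYNPO, synaptopodin, is an actin-associated protein known from kidney podocytes and from dendritic spines. The 3 THP-1 control libraries had 1.67, 1.42 and 1.41 FPKM and the 3 JOA libraries 0.795, 0.776 and 0.786 FPKM. The JOA libraries differed little from each other (0.786 ± 0.00934 FPKM, SD, n = 3) and all lay below the controls, 1.91-fold lower in the mean (log2 fold change -0.85, SE 0.11). In MOLM-13, controls had 0.110, 0.156 and 0.0633 FPKM and JOA libraries 0.0512, 0.120 and 0.107 FPKM. These low levels overlapped between the groups. SYNPO is at chr5:150586010-150659207 on the plus strand, on the same chromosome as TIFAB, and the next measured gene on its 3′ side is MYOZ3, 1661 bases away on the same strand.

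VAT1L showed the largest fall among the members on the log2 scale, followed by SLA2, whose ratio of means was the larger of the pair. In THP-1 the control libraries had 3.33, 3.07 and 2.56 FPKM and the JOA libraries 1.12, 1.38 and 1.19 FPKM. The groups were far apart, with a 2.42-fold lower mean after JOA (log2 fold change -1.21, SE 0.13). MOLM-13 control libraries had 3.09, 4.73 and 3.997 FPKM and the JOA libraries 2.63, 2.98 and 3.46 FPKM. In MOLM-13 the JOA library was lower in all 3 same-numbered pairs, but the groups overlapped. THP-1 JOA was the lowest group, and the other three overlapped in a chain from MOLM-13 control to MOLM-13 JOA and THP-1 control. VAT1L covers chr16:77788564-77980107 on the plus strand, with 9 exons.

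LOC107987269 was the lowest member in THP-1 control cells and had the largest change. Its THP-1 control libraries had 0.0496, 0.0464 and 0.0818 FPKM and its JOA libraries 0.368, 0.356 and 0.337 FPKM. The JOA libraries were close to each other and all above the controls, with a 5.97-fold higher mean (log2 fold change 1.52, SE 0.19). The size on the log2 scale depends on the value added before taking logs, and was 0.35 with 1 FPKM and 2.43 with 0.01 FPKM added. In MOLM-13, controls gave 0.0486, 0.115 and 0.176 FPKM and JOA libraries 0.0630, 0.0578 and 0.0868 FPKM, all below the THP-1 JOA level and overlapping each other.

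Parts of the upstream regions are shown for 3 members, because MPP1 and SYNPO hold matches to motifs searched, and VAT1L, the member with the largest fall on the log2 scale, holds none. The sequences are from RefSeq on GRCh38.p14, whose table held 7 promoters of 6 members, each from 250 bases before to 50 bases after a start site. VAT1L and MPP1 are given as the 250 bases before the start site (chr16:77788314-77788563, plus strand, and chrX:154805486-154805735, minus strand), and SYNPO as 29 bases just after 1 of its start sites (chr5:150640663-150640691, plus strand). All are written 5′ to 3′ along the gene. Capitals mark a PU.1 match in MPP1 and, in SYNPO, the core of an antioxidant response element, within which an AP-1 match also lies.
VAT1L: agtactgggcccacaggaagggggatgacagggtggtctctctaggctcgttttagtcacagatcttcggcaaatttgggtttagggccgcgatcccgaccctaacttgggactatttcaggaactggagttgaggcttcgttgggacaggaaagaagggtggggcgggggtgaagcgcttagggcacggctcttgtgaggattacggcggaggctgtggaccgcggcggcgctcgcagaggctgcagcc
MPP1: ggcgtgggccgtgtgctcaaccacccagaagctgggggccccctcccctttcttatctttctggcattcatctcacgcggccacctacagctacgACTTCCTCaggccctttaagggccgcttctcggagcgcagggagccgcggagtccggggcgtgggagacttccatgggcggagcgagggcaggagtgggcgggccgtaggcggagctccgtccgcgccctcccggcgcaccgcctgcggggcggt
SYNPO: aaagagctggGCTGAGTCAtctgtggagg

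Both strands of the 7 promoters were searched for 6 motifs. The antioxidant response element core was spelled TGACNNNGC and was found in 1 of the 7, the SYNPO promoter above, against 13.3% of the 35116 promoters of the table. The AP-1 motif was spelled TGANTCA and was found in that same promoter, overlapping the antioxidant element, and in 7.71% of all promoters. The PU.1 motif was spelled GAGGAAGT and was found in MPP1 alone, on the reverse strand, and in 2.59% of all promoters. The TATA box was spelled TATAAA and was found in LOC107987269 alone and in 11.5% of all promoters. The CRE, spelled TGACGTCA, was in none of the 7 and in 1.85% of all promoters. The E-box, spelled CACGTG, was also in none of the 7 and in 7.26% of all promoters. No motif was held by more than 1 member. A match is only a run of letters and does not show binding.

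The MOLM-13 libraries were not used to choose the genes, and the question there is whether the members also moved with 0.5 μM JOA. Of the 8 members above the filter, 0 were called by limma, as were 0% of the 11693 genes tested. At an unadjusted p under 0.05 there were 2 members, DEFB1 and ASB13, beside 4.11% of all genes (481). With the replicate block there were 3, VAT1L being the third, beside 11.1% of all genes (1295). DEFB1 is in both counts although it passed the filter only through its control libraries. Without the block, its unadjusted limma p was 0.0558 with 1 FPKM added and 0.0985 without control 3. The groups did not overlap for 1 of the 8 members, ASB13, beside 9.65% of all genes, and its exact permutation p of 0.1 is the smallest that 3 against 3 libraries allow.

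The fitted MOLM-13 changes were small for most members. The log2 fold change was 0.23 for ASB13 (95% interval 0.01 to 0.46), 0.10 for TIFAB (-0.10 to 0.31), 0.09 for MPP1 (-0.08 to 0.26) and -0.01 for RFLNB (-0.27 to 0.24). VAT1L had -0.36 (SE 0.16, 95% interval -0.73 to 0.01, and -0.60 to -0.12 with the replicate block), SLA2 -0.12 (SE 0.20) and SYNPO -0.12 (SE 0.29). SYNPO was barely above the filter (mean 0.101 FPKM), and its JOA libraries alone were below it (mean 0.0929 FPKM). DEFB1 had -1.54 (SE 0.57, interval -2.85 to -0.23) on levels below 1 FPKM, and it passed the filter only through its control libraries. Its size was set by the value added before taking logs, with -0.36 at 1 FPKM (interval -0.73 to 0.01) and -3.51 at 0.01 FPKM, and it was -0.99 without control 3, the library at 0.806 FPKM. LOC107987269, below the filter in MOLM-13, gave -0.29 (SE 0.23, interval -0.85 to 0.26) in a fit of all genes with any value above 0. The Benjamini-Hochberg adjusted p of limma was 1.00 for each of the 8 members above the filter and 0.993 for LOC107987269. With the replicate block, 0 members were called, and the adjusted p of VAT1L was 0.356 (limma).

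**Figure D2:**
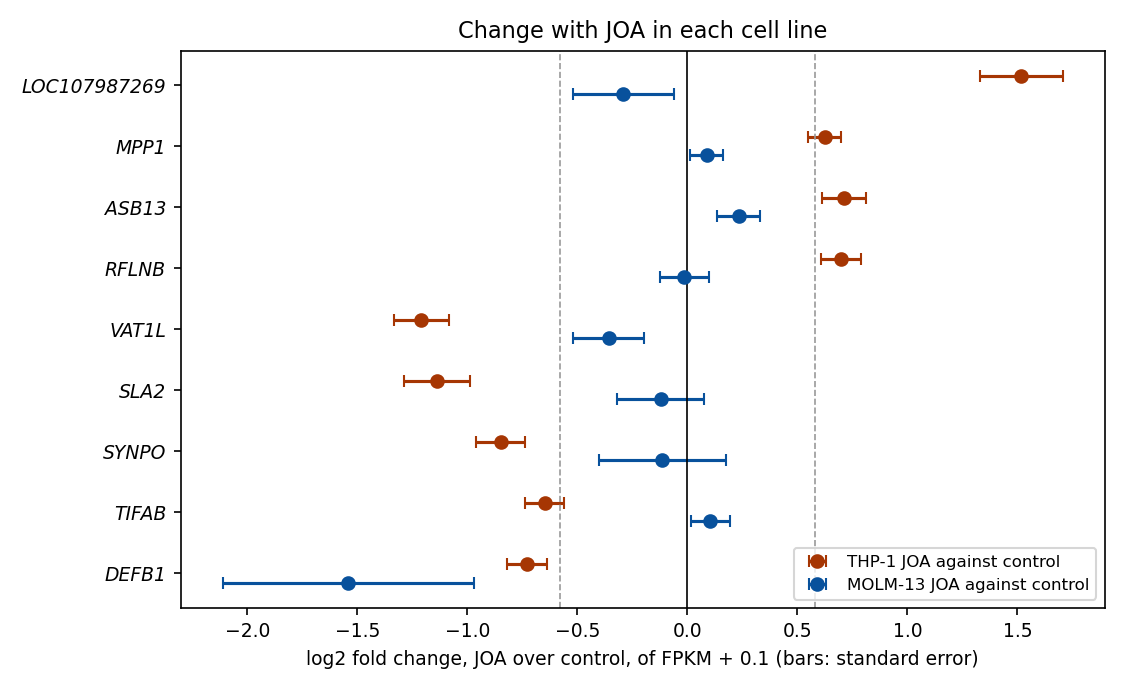
Log2 fold change of JOA over control, of FPKM + 0.1, for the 9 genes in THP-1 (2 μM) and MOLM-13 (0.5 μM) cells. Points are limma estimates from 3 against 3 libraries, bars are 1 standard error and dashed lines mark 0.58 in either direction; all THP-1 points lie outside the dashed lines, as the choice of the genes requires, and the MOLM-13 points lie between them except DEFB1, which is near 0 FPKM in MOLM-13.

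The difference between the changes in the lines (THP-1 minus MOLM-13, log2 scale) is given as a description and was not tested, because the THP-1 libraries chose the genes. It was 1.81 (SE 0.27) for LOC107987269, -1.02 (SE 0.18) for SLA2, -0.85 (SE 0.23) for VAT1L, -0.75 (SE 0.13) for TIFAB and -0.73 (SE 0.26) for SYNPO. RFLNB had 0.71 (SE 0.16), MPP1 0.54 (SE 0.10) and ASB13 0.48 (SE 0.14). DEFB1 had 0.81 with an SE of 0.68, and its direction turned to -0.36 when 1 FPKM was added in place of 0.1 FPKM. The other members kept their direction in every alternative scaling, filter and pseudocount that gave a value, although the sizes for SLA2, VAT1L and SYNPO fell to -0.46, -0.55 and -0.46 with 1 FPKM added.

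Before treatment, most members already differed between the lines. This comparison used the THP-1 control libraries, which also served in choosing the genes, and the lines differ in many other ways. Of the 8 members above the filter, SLA2, SYNPO and DEFB1 were higher in THP-1 control than in MOLM-13 control cells, a call that 25.0% of the 12635 genes tested shared. MPP1, ASB13 and RFLNB were lower in THP-1, as were 19.0% of all genes, so that 6 of 8 members were called against 44.0% of all genes. The p-values measure only the spread between these libraries, which may be technical.

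DEFB1 had the largest difference, with 162 ± 17.8 FPKM in THP-1 and 0.392 ± 0.359 FPKM in MOLM-13 control cells (SD, n = 3 each), a log2 difference of 8.59 (limma, Benjamini-Hochberg adjusted p = 5.44e-07). SYNPO was 13.7-fold higher in THP-1 (limma adjusted p = 3.12e-06) and SLA2 4.02-fold higher (limma adjusted p = 3.11e-05). ASB13 was 3.22-fold lower (limma adjusted p = 3.04e-06), MPP1 2.87-fold lower (limma adjusted p = 9.67e-07) and RFLNB 1.94-fold lower (limma adjusted p = 7.70e-05). VAT1L (log2 difference -0.38, limma adjusted p = 0.0687) and TIFAB (0.00 within rounding, 95% interval -0.24 to 0.23, limma adjusted p = 0.971) did not pass. LOC107987269 was below the filter, and in the fit of all genes with any value above 0 it had a log2 difference of -0.38 (limma adjusted p = 0.200).

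Read side by side, the levels show where THP-1 cells with JOA stood against untreated MOLM-13 cells, with the THP-1 and MOLM-13 control libraries shared by these values. MPP1 was at 4.33 FPKM in THP-1 control, 6.73 FPKM in THP-1 JOA and 12.4 FPKM in MOLM-13 control. ASB13 was at 2.37, 3.94 and 7.64 FPKM in the same order, and RFLNB at 31.2, 50.7 and 60.7 FPKM. For these genes, as for SLA2, SYNPO and DEFB1, the level with JOA lay between the levels of the untreated lines. Only RFLNB had JOA libraries that overlapped the MOLM-13 control range. SYNPO with JOA was still 7.16-fold above MOLM-13 control. DEFB1 was 249-fold above it, or 528-fold when MOLM-13 control 3, the highest of the control libraries, was left out. VAT1L, TIFAB and LOC107987269 instead left the range of the untreated lines, VAT1L to 1.23 and TIFAB to 6.61 FPKM below it and LOC107987269 to 0.354 FPKM above it. The choice of members fixed the direction of each THP-1 change. The share of all genes whose level with JOA lay between the untreated lines was not determined, so these positions are a description.

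**Figure D3:**
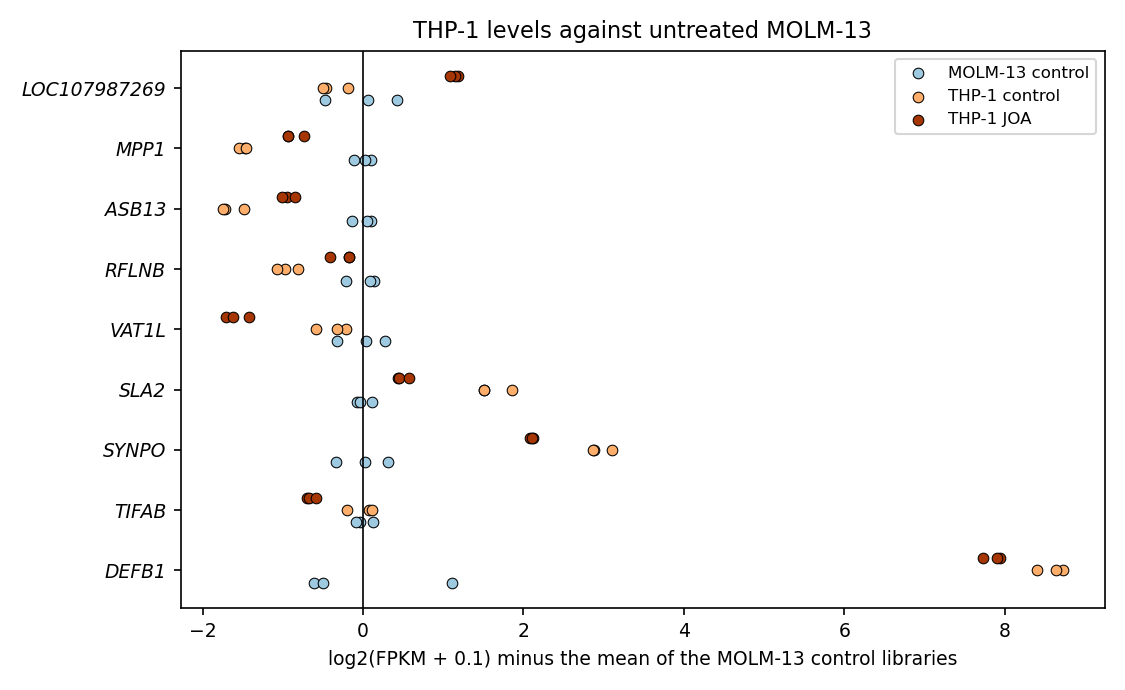
Level of each gene in THP-1 control and THP-1 JOA libraries relative to the mean of the MOLM-13 control libraries, as a difference of log2(FPKM + 0.1), with the MOLM-13 control libraries around 0. Each point is 1 library; the dark points (THP-1 JOA) lie between the THP-1 control points and 0 for MPP1, ASB13, RFLNB, SLA2, SYNPO and DEFB1, and beyond both control groups for VAT1L, TIFAB and LOC107987269.

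The genes that lie over or next to the members on the chromosome were examined because reads from a shared stretch cannot be assigned with certainty. The counting step's strand setting is not given in the sources used here. In all, 21 genes that overlap a member or are its nearest measured neighbour could be tested in THP-1. By limma, 0 of them were called, with or without the replicate block. Of all genes, 0.134% were called without the block and 1.27% with it, so 0 of 21 says little about the neighbours. Of these 21 genes, 0 reached the fold threshold, and their log2 fold changes ranged from -0.56 to 0.22. Some overlapping genes had no measured level and could not be examined. RFLNB lies wholly within such a gene, LOC100996709 (5963 shared bases), and TIFAB shares 1852 bases with LOC124901073. VAT1L, SLA2 and SYNPO also overlap unmeasured genes.

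The lowest of these values belonged to DCANP1, which shares 3123 bases with TIFAB on the same strand, so that the pair cannot be separated by strand. DCANP1 had 4.77, 6.50 and 7.57 FPKM in THP-1 control and 3.35, 4.85 and 4.39 FPKM in THP-1 JOA libraries. These groups overlapped slightly, and JOA was lower in each same-numbered pair (log2 fold change -0.56, SE 0.19, limma adjusted p = 0.190 and 0.0133 with the replicate block). In MOLM-13 its log2 fold change was 0.11 (SE 0.08), next to 0.10 for TIFAB. How much of either gene's value comes from the shared stretch was not tested. MACROH2A1, the nearest measured gene at lower coordinates than TIFAB, had -0.22 in THP-1, under the fold threshold in size. Its SE was 0.05, and its limma adjusted p was 0.0877, and 0.0265 with the replicate block.

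LOC107987269 (chr19:46716534-46719722, minus strand) lies between STRN4 and PRKD2, with 212 bases shared with STRN4 and 581 bases shared with PRKD2, all on the minus strand. STRN4, a scaffold of phosphatase complexes, had 16.1 ± 0.544 FPKM in THP-1 control and 16.9 ± 0.550 FPKM in THP-1 JOA libraries (SD, n = 3). Its log2 fold change was 0.07 (SE 0.05, limma adjusted p = 0.536). PRKD2, a serine/threonine kinase, had 0.03 (SE 0.08, limma adjusted p = 0.890). Both were far more abundant than LOC107987269, and neither was called. SLA2 shares 240 bases with RAB5IF on the opposite strand, whose log2 fold change was 0.13 (SE 0.05) against the fall of SLA2. MYOZ3, next to SYNPO, had -0.54 (SE 0.21, limma adjusted p = 0.242), at levels of 0.307 FPKM in control and 0.180 FPKM in JOA libraries.

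**Figure D4:**
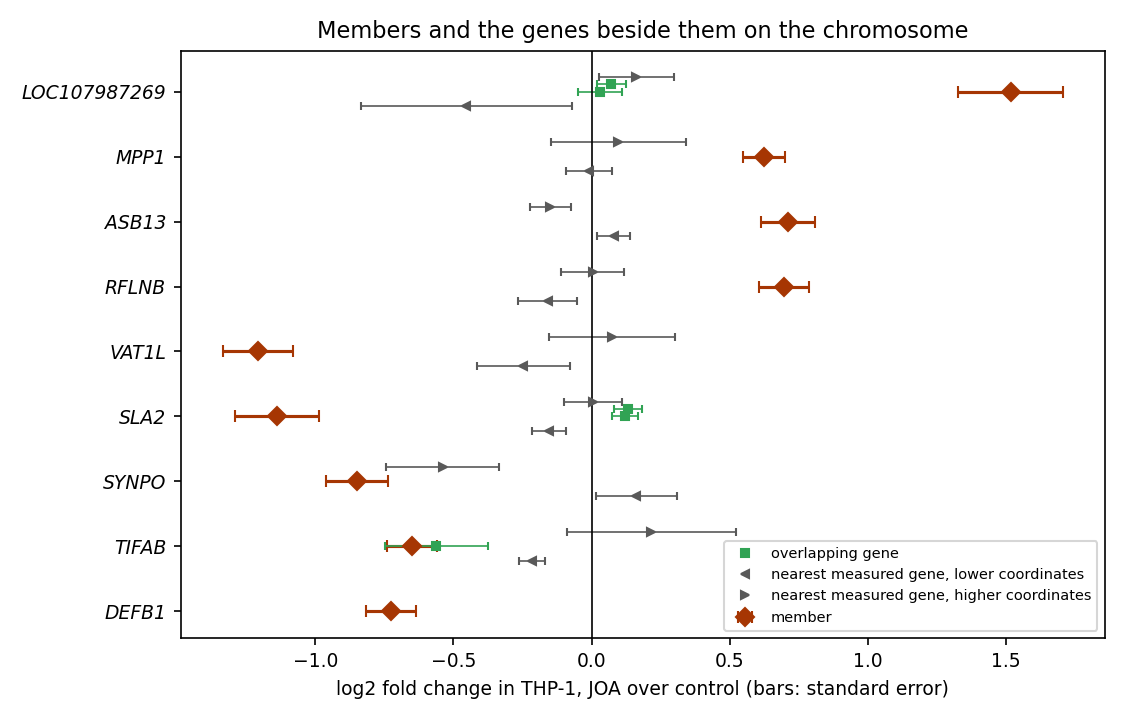
Log2 fold change in THP-1, JOA over control, of each member (diamonds) and of the tested genes that overlap it (squares) or are its nearest measured neighbours (triangles), with bars of 1 standard error from limma. The members lie beyond 0.58 on either side and the 21 other genes between -0.56 and 0.22, with DCANP1 closest to the member it overlaps, TIFAB; DEFB1 had no neighbour above the filter.

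Genes of the same families or pathways were set beside each member in 8 lists of 81 names in all, 76 of which are in the table. In THP-1, 61 were tested and 0 were called by limma, and in MOLM-13, 59 were tested and 0 were called. With the replicate block, 0 were called higher and 2 lower in THP-1, FLNC and DEFA4, and 0 in MOLM-13. Over all genes in THP-1, 0.134% were called without the block and 1.27% with it, so these counts say little about the families.

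FLNC encodes filamin C, of the family that refilins bind. It had 1.22, 0.940 and 0.620 FPKM in THP-1 control and 0.394, 0.373 and 0.288 FPKM in THP-1 JOA libraries, without overlap, opposite in direction to RFLNB (log2 fold change -1.15, SE 0.23, limma adjusted p = 0.0805 and 0.0108 with the replicate block). In MOLM-13 its mean was 0.0276 FPKM without and 0.0168 FPKM with JOA. The other tested genes of the refilin and filamin list brought its median log2 fold change in THP-1 to 0.09, beside 0.02 over all genes.

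DEFA4 encodes an alpha-defensin of neutrophil granules. It had 8.41, 5.38 and 5.77 FPKM in THP-1 control and 6.01, 3.19 and 2.20 FPKM in THP-1 JOA libraries and was listed at 0 in all MOLM-13 libraries. The THP-1 groups overlapped while every same-numbered pair was lower with JOA (log2 fold change -0.86, SE 0.33, limma adjusted p = 0.250 and 0.0215 with the replicate block). Without THP-1 JOA 3 the log2 fold change was -0.53, under the fold threshold in size. All 5 tested genes of the antimicrobial peptide list had a log2 fold change below 0 in THP-1, with a median of -0.26 that no test was run on. In MOLM-13, 3 of the 5 tested were above 0 and the median was 0.07.

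The remaining lists showed no called gene in either line, with medians in THP-1 between -0.08 and 0.13. TP53I3, a quinone reductase related to VAT1L, had a log2 fold change of -0.42 (SE 0.16, limma adjusted p = 0.235 and 0.0451 with the replicate block). VAT1 went the other way, with 0.24 (SE 0.08, limma adjusted p = 0.193 and 0.0410 with the replicate block). SLA, the closest relative of SLA2, had 0.22 (SE 0.08, limma adjusted p = 0.222), and UBASH3B, a phosphatase that restrains tyrosine kinase signals, had 0.24 (SE 0.10, limma adjusted p = 0.270). In the TIFA and TRAF6 list, the kinase ALPK1 had 0.29 (SE 0.11, limma adjusted p = 0.231) and the adaptor MYD88 -0.22 (SE 0.06, limma adjusted p = 0.146). None of these reached the fold threshold. SYNPO2 had 0.29 (SE 0.15) and the actin crosslinker ACTN4 0.12 (SE 0.05). Among the relatives of MPP1, MPP2 had -0.31 (SE 0.11) and MPP7 0.22 (SE 0.25), and among those of ASB13, ASB2 had -0.29 (SE 0.16) and ASB3 0.18 (SE 0.19).

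The genes whose pattern was most like each member were sought among 9240 genes with a mean of at least 1 FPKM in both lines, by Pearson's r over the 12 libraries after the mean of each line was removed. The points share their libraries and the THP-1 change for which the members were chosen, so these values are a description. MPP1 had the closest match, ERLIN2, an endoplasmic reticulum membrane protein (r = 0.991), which went from 10.5 to 14.5 FPKM in THP-1 and from 21.2 to 21.9 FPKM in MOLM-13. Its next was the actin-bundling LCP1 (0.974). ASB13 was matched by CAPG, an actin filament capping protein (0.958), and FBXL18 (0.953), and RFLNB by C1orf162 (0.959) and the sulfiredoxin SRXN1 (0.959). SRXN1 went from 15.3 to 20.9 FPKM in THP-1 and from 14.0 to 14.7 FPKM in MOLM-13.

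LOC107987269 was followed most closely by MED29 and TMEM59 (both 0.952). For VAT1L these were the chromatin remodeler CHD4 (0.951) and GIPC3 (0.950), for SLA2 FAM117B (0.948) and ZBED4 (0.926), and for SYNPO the hexokinase HK2 (0.921) and the mitochondrial chaperone TRAP1 (0.918). TIFAB was nearest to the antiproliferative TOB1 (0.915) and to ANAPC5 (0.883). DEFB1 had the loosest matches, OTULINL (0.816) and CHI3L1 (0.807), a secreted chitinase-like protein that went from 476 to 402 FPKM in THP-1. On the log2 scale DEFB1 varied more within MOLM-13 groups (SD 0.94) than within THP-1 groups (SD 0.14). Its r values thus rest largely on MOLM-13 values near 0 FPKM. Over the MOLM-13 libraries alone, r of the named matches ranged from 0.124 (TIFAB with ANAPC5) to 0.969 (MPP1 with ERLIN2). SLA2 with FAM117B had 0.229 there.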

How the data were processed

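The values are FPKM per gene and library, which the authors deposited in one table. Libraries were stranded mRNA, and the submitters' processing notes name Trimmomatic, HISAT2, Cufflinks, HTSeq and hg38. Versions and the annotation are not given in the sources used here. Conditions and replicate numbers came from the sample records.

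Within each comparison, genes with a mean of at least 0.1 FPKM were kept and log2(FPKM + 0.1) was fitted with limma 3.58.1 in R 4.3.3 (eBayes with a trend). A gene was called at an adjusted p (Benjamini-Hochberg) under 0.05 with a log2 fold change of 0.58 or more in size. Exact permutation tests on log2(FPKM + 0.1) were two-sided and used Python 3.11.15 with scipy 1.17.1. The limma fit was tested on simulated libraries with known changes in 200 genes. These changes were larger than the THP-1 changes of most members, no gene below 1 FPKM was changed, and replicates were not paired. The simulation thus does not cover small changes, low levels or pairing. The count test of the authors (DESeq) could not be applied to FPKM.

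Same-numbered libraries tended to vary together. Each library's deviation from its group mean correlated at 0.264 to 0.398 (MOLM-13) and 0.139 to 0.319 (THP-1) between same-numbered control and JOA libraries. Between others the correlation was at most 0.0168. Deviations within a group sum to 0, so the values between others depend on those of the same number. A fit with the replicate number as a block was therefore made beside each result. Whether same-numbered libraries come from separate cultures is not stated. The legend of the study's mRNA-seq figure names fewer independent experiments than the 3 libraries of each group. How the libraries relate to those experiments is not given.

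The members and lists were chosen with earlier results of these data known. Genes named were the 9 members, list genes called in any fit or otherwise the 2 of each list with the largest change in THP-1, the 2 genes most like each member, and overlapping or neighbouring genes. STRN4, PRKD2, MYOZ3 and MACROH2A1 were picked from the last after their values were seen. Positions and promoters are from RefSeq (GRCh38.p14), exons from GENCODE 29. Alternatives covered the pseudocount, the filter, scaling by size factors or to TPM, the trend, the block, a fit of all 12 libraries and leaving out each library.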

Additional observations from a re-analysis of the deposited data

How the results depend on the processing

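Each member kept its direction in THP-1 under every alternative that tested it (a filter of 1 FPKM left out LOC107987269 and SLA2). The choice of members fixed much of this. Because the JOA and control libraries of each member did not overlap, leaving out 1 library could not reverse a direction. The log2 fold changes that moved by more than 1 SD between replicates were those at a pseudocount of 1 FPKM (LOC107987269, VAT1L, SLA2, SYNPO, MPP1 and ASB13) or 0.01 FPKM (LOC107987269 and SLA2) and, scaled to TPM, LOC107987269 (2.15). The number of genes called over the whole table in THP-1 was less stable. Against 17, it was 8 with a pseudocount of 1 FPKM, 0 with any value above 0, 1 without the trend, 161 with the replicate block and 51 in a fit of all 12 libraries. Leaving out 1 library gave 0 to 1 (1 without control 1, and 0 without any of the other five). The block combined with any value above 0, added after seeing the data, gave 0. Where the count was 0, no member was called either. At a pseudocount of 1 FPKM, LOC107987269 (0.35), SLA2 (-0.49), SYNPO (-0.48), MPP1 (0.54) and ASB13 (0.55) were under the fold threshold.

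In MOLM-13 the count was 0 throughout except for 1 gene with any value above 0, and no member was called in any fit. Values near 0 changed sign in MOLM-13 when 1 library was left out: the log2 fold change of SYNPO ranged from -0.284 to 0.0511 (above 0 without JOA 1) and that of RFLNB from -0.123 to 0.0706 (above 0 without control 1, control 2 or JOA 3). SYNPO fell below the filter without control 1, control 2 or JOA 2, so its range covers only the other fits. Between the untreated lines, the 6 called members stayed called in each alternative that tested them (4 with a filter of 1 FPKM, which left out SLA2 and SYNPO). The difference of TIFAB there was 0.0783 with TPM and ranged from -0.0642 to 0.0928 when 1 library was left out (above 0 without MOLM-13 control 1 or THP-1 control 1). FLNC also passed in the fit of all 12 libraries (limma adjusted p = 0.0475). The replicate block changed no call other than FLNC, DEFA4 and the count above. Depth is unknown, which limits what can be said of DEFB1, SYNPO, SLA2 and LOC107987269 at their MOLM-13 levels.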
